A study of Mus musculus with 13 samples.

Results

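The transcripts described here are those of 3 genes of the FoxO family, Foxo1, Foxo3 and Foxo4, and of Depp1, a gene known to be induced by FoxO factors. These 4 genes, of 21868 in the table of normalized counts, were chosen by their levels in the same 13 mice, so that their levels and differences between groups are given as a description, with no test. Tests are reported for Foxo6, the remaining family member, and for genes upstream and downstream of the FoxO factors, with p-values adjusted over all 12303 genes whose mean normalized count was at least 10. The lists of these upstream and downstream genes were also chosen with earlier results of these data known. The share of each list that was called is therefore not independent of these data.

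RNA was sequenced from gastrocnemius muscle of male C57BL/6N mice (C57BL/6 in the sample labels) that were 7 weeks old on arrival, had 1 week to acclimatize, received a diet with 60 kcal% fat for 15 to 17 weeks and were then returned to chow. For 3 weeks, 5 mice received vehicle (PBS; mice 1 to 5), 5 mice received semaglutide, an agonist of the glucagon-like peptide-1 receptor, at 30 nM/kg/day by intraperitoneal injection (mice 13 to 17), and 3 mice received the same semaglutide dose while drinking water that held 0.114 g/mL of a ketone ester (mice 19, 21 and 22). The sample labels name the groups without ketone ester Vehicle+placebo and Semaglutide+placebo. What the placebo was is not given in the sources used here. All mice, vehicle-treated mice included, were thus fed the high-fat diet to make them obese, and no group received the ketone ester without semaglutide. Each mouse gave 1 library of the whole muscle, and in such bulk samples fewer cells of a type and less RNA per cell cannot be told apart.

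FoxO factors are forkhead transcription factors that lie downstream of the insulin and insulin-like growth factor receptors. When the receptors are active, PI 3-kinase and Akt phosphorylate FoxO proteins, which are then held in the cytoplasm by 14-3-3 proteins, and when Akt activity is low, FoxO proteins enter the nucleus. In skeletal muscle they are known for driving genes of protein breakdown, among them the ubiquitin ligases Fbxo32 (atrogin-1) and Trim63 (MuRF1), together with autophagy, fasting metabolism and brakes on translation. Much of their control is through protein modification and location, which transcript counts do not show.

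FoxO factors are known to bind the letters GTAAACA, which read as TGTTTAC on the other strand. In insulin-responsive genes they are also known to bind CAAAACA, which reads as TGTTTTG on the other strand. Both were searched for on both strands in the 250 bases upstream of each RefSeq gene start in GRCm38.p6. Upstream windows are shown for Depp1 and Foxo1, the members with the largest differences, and for a ubiquitin ligase and a kinase whose windows held a match and whose values follow. Matches are in capitals and bases inside a GENCODE exon are left off.
Depp1, chr6:116650434-116650608, + strand: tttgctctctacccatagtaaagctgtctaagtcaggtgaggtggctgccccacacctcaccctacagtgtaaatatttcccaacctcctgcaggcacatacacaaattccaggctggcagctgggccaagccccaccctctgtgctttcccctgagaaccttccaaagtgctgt
Foxo1, chr3:52268087-52268335, + strand: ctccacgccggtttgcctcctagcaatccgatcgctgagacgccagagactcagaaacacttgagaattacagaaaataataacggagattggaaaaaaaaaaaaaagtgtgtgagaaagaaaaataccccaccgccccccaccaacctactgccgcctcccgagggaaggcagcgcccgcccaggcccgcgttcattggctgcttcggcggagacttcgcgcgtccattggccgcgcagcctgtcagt
Trim63, chr4:134314870-134315119, + strand: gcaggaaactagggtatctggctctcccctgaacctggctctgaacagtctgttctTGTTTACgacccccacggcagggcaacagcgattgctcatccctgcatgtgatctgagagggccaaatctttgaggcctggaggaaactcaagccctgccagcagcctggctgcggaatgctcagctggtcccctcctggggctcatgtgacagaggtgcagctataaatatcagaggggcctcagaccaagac
Akt1, chr12:112674885-112675134, - strand: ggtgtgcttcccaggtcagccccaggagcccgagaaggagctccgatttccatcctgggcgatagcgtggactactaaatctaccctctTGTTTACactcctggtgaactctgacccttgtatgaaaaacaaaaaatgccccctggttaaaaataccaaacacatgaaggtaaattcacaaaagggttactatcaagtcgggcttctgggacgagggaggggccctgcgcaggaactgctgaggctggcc
The Depp1 and Foxo1 windows held neither set of letters, and neither did that of Foxo3. Trim63 held TGTTTAC from 194 bases before its start and Akt1 from 161 bases before the start at the printed window, while a second Akt1 window, chr12:112674277-112674526, held neither set of letters. Of the other input genes whose values are given further on, Irs1 and Irs2 held TGTTTTG, and Pik3r1, Igf1r and Sgk1 held neither set of letters. Among the FoxO target genes described further on, 5 of the 40 with a window, 12.5%, held GTAAACA or its complement (Bbc3, Bcl2l11, Selenop, Trim63 and Txnip), against 3.54% of 27025 genes with such windows. CAAAACA was found for 3 of the 40 (Ccng2, G6pc and Igfbp1), 7.5%, against 6.38% of all genes with windows. A match in such a window is a description of its letters only.

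Between 15319471 and 23498162 reads per mouse were counted on genes. The first principal component of all genes tested, with 38.1% of the variance, placed semaglutide mouse 13 at -9.12, mice 14 to 17 at 31.8 to 52.5 and the vehicle group at -24.5 to -12.8. Mouse 13 thus stood apart from the other semaglutide-treated mice. The 6 skeletal muscle markers Ckm, Acta1, Myh4, Myh1, Tnnt3 and Mb were present in every group, with summed normalized counts of 2234751.0 to 2714691.8 in vehicle-treated, 1377580.7 to 2449910.2 in semaglutide-treated mice, whereas those given semaglutide + ketone ester had 2839073.8 to 3345227.0. Under semaglutide 4 of 5 fibroblast markers and 1 of 6 muscle markers (Mb) fell by limma against vehicle, and between semaglutide and semaglutide + ketone ester 3 fibroblast, 3 muscle, 3 of 10 endothelial and all 5 erythroid markers rose. For the erythroid markers edgeR called 1 and DESeq2 0 higher there, and under semaglutide 5 were lower than under vehicle at an unadjusted p under 0.05, none of them called by limma with all mice and all 5 without mouse 13. The summed erythroid markers were 50.5 to 3147.9 under semaglutide against 1356.2 to 2291.4 under vehicle and 2849.3 to 5558.0 under semaglutide + ketone ester, and the summed fibroblast markers 4692.7 to 6108.2 against 4523.4 to 10470.6 and 6269.4 to 9768.5. Limma called none of 6 adipocyte, 6 macrophage and 3 Schwann cell markers in any comparison (1 adipocyte marker was lower at an unadjusted p under 0.05, and DESeq2 called 1 higher, both between semaglutide and vehicle), with sums of 150 to 11062.7, 335 to 1284.8 and 285 to 1081.6 over all mice. Both ends of the adipocyte range were semaglutide-treated mice. The adipocyte sums were 575 to 2674.4 under vehicle and 1026.3 to 2045.0 under semaglutide + ketone ester. The part of these other cell types in the values that follow was not tested.

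Foxo1 was the member whose level separated all 3 groups. Foxo1, the factor best known for control of fasting metabolism (chr3:52268336-52353221, + strand, GENCODE annotation of GRCm38), had normalized counts of 2745.2, 2285.0, 1269.5, 1237.4 and 1174.8 in vehicle mice 1 to 5. The values were 621, 673, 842, 810 and 1121.9 in semaglutide mice 13 to 17. In semaglutide + ketone ester mice 19, 21 and 22 they were 553, 302 and 312. Every semaglutide-treated mouse was below every vehicle-treated mouse, and every mouse given semaglutide + ketone ester was below every mouse given semaglutide alone. Vehicle mice 1 and 2 were far above the other three, and the narrowest gap between groups was that between semaglutide mouse 17 and vehicle mouse 5.

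Vehicle-treated mice averaged 1742.4 ± 725 for Foxo1 (SD, n = 5). Semaglutide-treated mice averaged 813 ± 195 (SD, n = 5), and mice given semaglutide + ketone ester 389 ± 142 (SD, n = 3). On the log2(normalized count + 1) scale, used for all differences here, the difference was -1.03 (SE 0.26) between semaglutide and vehicle, -1.09 (SE 0.29) between semaglutide + ketone ester and semaglutide, and -2.12 (SE 0.29) between semaglutide + ketone ester and vehicle. Of all genes tested, 13.9%, 10.7% and 0.268% were called lower in these 3 comparisons, and 12.5%, 10.0% and 0.0975% were called higher. Of the calls between semaglutide and vehicle 47.3% were higher, against 77.3% with the columns rescaled to equal totals, and between semaglutide + ketone ester and semaglutide 48.5%, against 14.6%. Without vehicle mouse 1 the first difference was -0.85. Foxo1 is strongly expressed by endothelial cells, and the summed counts of 10 endothelial markers lay between 5127.3 and 6325.7 under vehicle, 5377.4 and 6009.9 under semaglutide and 5656.7 and 6698.5 under semaglutide + ketone ester, so that the 3 ranges overlapped. Of these markers Cdh5, Emcn and Kdr rose between semaglutide and semaglutide + ketone ester by limma, where Foxo1 was lower, but with equal totals 0 of the 10 were called higher and 2 lower there.

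**Figure D1:**
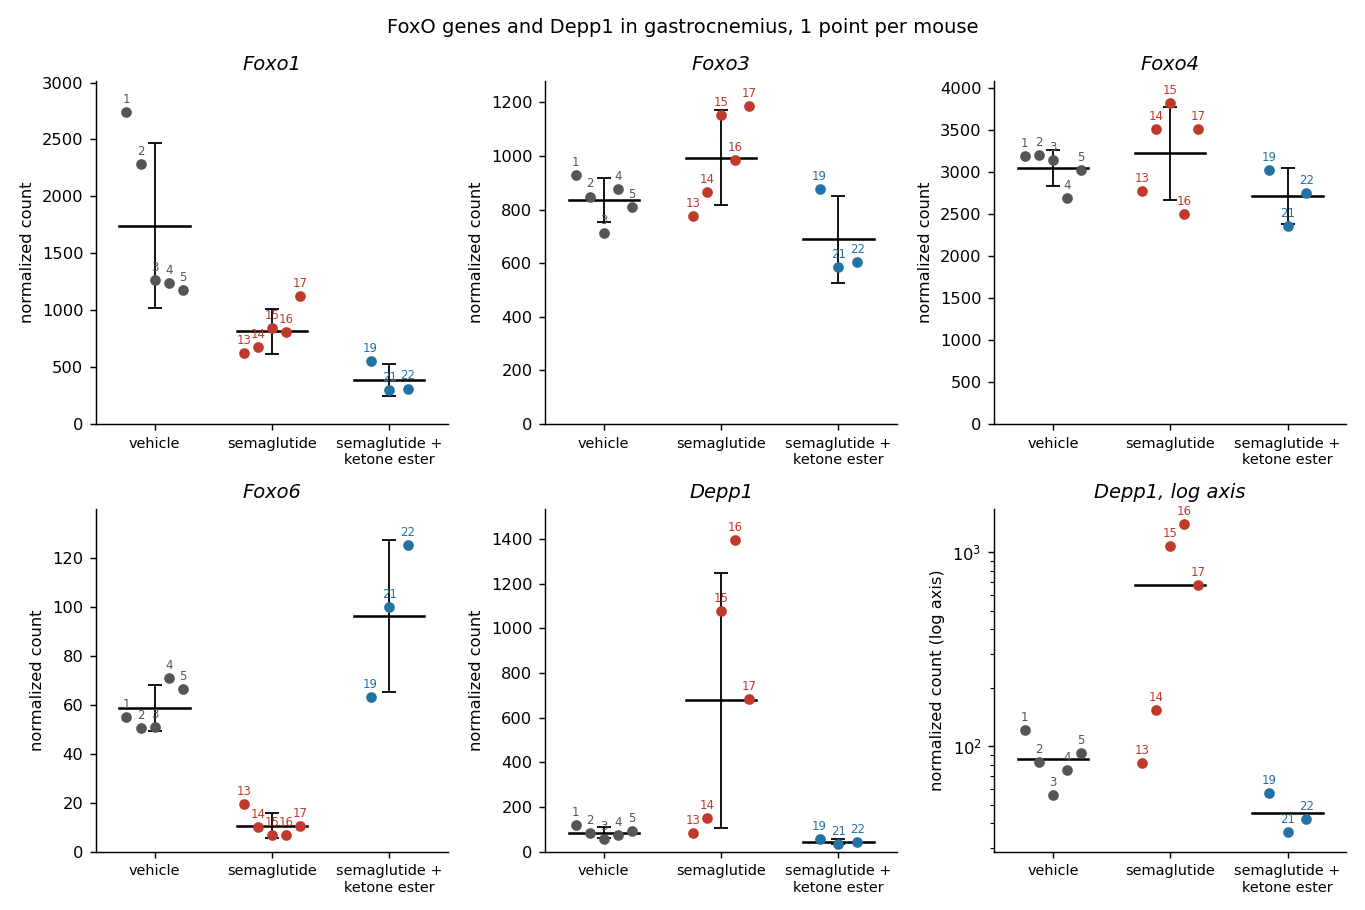
Normalized counts (linear axes from 0) of Foxo1, Foxo3, Foxo4, Foxo6 and Depp1 in each mouse, numbered, with the mean (horizontal line) and SD (error bar) of each group, and Depp1 again on a log axis with the mean only. Foxo1 stepped down over the 3 groups, Foxo6 was at 6.66 to 19.3 in every semaglutide-treated mouse, and Depp1 was high in semaglutide mice 15, 16 and 17.

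Foxo3 differed much less. Foxo3, a factor known for driving autophagy and protein breakdown in muscle (chr10:42181841-42276755, - strand), had normalized counts of 931, 849, 711, 877 and 809 in vehicle mice 1 to 5. Semaglutide mice 13 to 17 had 775, 867, 1151.9, 985 and 1186.0. Semaglutide + ketone ester mice 19, 21 and 22 had 876, 587 and 604. Mice 15, 16 and 17 were above every vehicle-treated mouse, but mice 13 and 14 lay within the range of vehicle, and mouse 19 lay within the ranges of both other groups. The means were 836 ± 82.4 (SD, n = 5), 993 ± 178 (SD, n = 5) and 689 ± 162 (SD, n = 3). The log2 differences were 0.24 (SE 0.14) for semaglutide against vehicle, -0.53 (SE 0.16) for semaglutide + ketone ester against semaglutide and -0.30 (SE 0.16) for semaglutide + ketone ester against vehicle, and the groups overlapped in all 3 comparisons.

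Foxo4, an X-linked member of the family (chrX:101254528-101260873, + strand), had the smallest differences of the 3 factors. Its normalized counts were 3194.9, 3205.9, 3141.7, 2687.7 and 3019.1 in vehicle mice 1 to 5. They were 2769.8, 3512.7, 3815.6, 2501.5 and 3510.3 in semaglutide mice 13 to 17. They were 3025.5, 2361.5 and 2750.8 in semaglutide + ketone ester mice 19, 21 and 22. Semaglutide-treated mice spread to both sides of the vehicle range. The means were 3049.9 ± 216 (SD, n = 5), 3222.0 ± 558 (SD, n = 5) and 2712.6 ± 334 (SD, n = 3), with log2 differences of 0.06 (SE 0.12), -0.24 (SE 0.13) and -0.17 (SE 0.13) in the same order of comparisons. Without semaglutide mouse 15 the first of these was -0.00, so that its sign rested on single mice. With the columns rescaled to equal totals, which moved the median difference of all genes by 0.17 between semaglutide and vehicle and by -0.235 where semaglutide + ketone ester was set against semaglutide, the second was -0.47.

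Foxo6, which is named here as the remaining member of the family (chr4:120267079-120287349, - strand), was the least abundant and had the opposite order of groups to Foxo3 and Depp1. Its normalized counts were 54.9, 50.6, 50.7, 71.0 and 66.4 in vehicle mice 1 to 5. Semaglutide mice 13 to 17 had 19.3, 10.1, 6.66, 6.80 and 10.4, which rest on 20, 9, 6, 7 and 14 reads. Semaglutide + ketone ester mice 19, 21 and 22 had 63.2, 100 and 125. All semaglutide-treated mice were below all other mice. The log2 level of Foxo6 under semaglutide fell by 2.44 against vehicle (SE 0.27, limma adjusted p = 5.51e-05). It was higher by 3.10 under semaglutide + ketone ester than under semaglutide (SE 0.31, adjusted p = 0.00022). Between semaglutide + ketone ester and vehicle the difference was 0.66 (SE 0.31, adjusted p = 0.489), with mouse 19 inside the vehicle range. Leaving out any 1 mouse, the adjusted p was at most 0.000317 for the first comparison and 0.00346 for the second.

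Levels of different genes are compared per kilobase of exon, with all GENCODE exons of a gene merged. Foxo1 ends at 52353221 in GENCODE and at 52350109 in RefSeq. Whether the order of the genes and their shares hold with other exon lengths was not tested. Foxo4 was the most abundant of the 4 FoxO transcripts in every group, with 875 ± 61.9, 925 ± 160 and 778 ± 95.7 normalized counts per kb (SD; vehicle, n = 5, semaglutide, n = 5, semaglutide + ketone ester, n = 3). Foxo1 followed under vehicle with 201 ± 83.6 per kb, but its 93.9 ± 22.6 under semaglutide and 44.9 ± 16.4 under semaglutide + ketone ester were below the 131 ± 23.5 and 91.0 ± 21.4 of Foxo3, which had 110 ± 10.9 under vehicle. Foxo6 was at 22.5 ± 3.59, 4.08 ± 1.97 and 36.8 ± 11.9 per kb. In vehicle-treated mice the levels of Foxo1, from 136 to 317 per kb, lay above those of Foxo3, from 94.0 to 123, whereas under semaglutide the ranges of the same genes, 71.7 to 129 and 102 to 157, overlapped.

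As a share of the 4 FoxO transcripts per kb, Foxo1 made up 16.2% ± 4.98 in vehicle-treated mice, 8.18% ± 1.65 in those given semaglutide and 4.65% ± 1.15 in those given semaglutide + ketone ester (SD; n = 5, 5 and 3). The share of Foxo4 was 72.7% ± 4.56, 80% ± 3.11 and 81.9% ± 0.912 (SD), and that of Foxo3 9.19% ± 1.11, 11.4% ± 1.62 and 9.51% ± 1.21 (SD). The summed level of the 4 transcripts overlapped between groups, at 1057.0 to 1377.6, 944 to 1346.7 and 828 to 1071.7 normalized counts per kb. The mix of FoxO transcripts thus held less Foxo1 in both treated groups while most of it remained Foxo4.

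**Figure D2:**
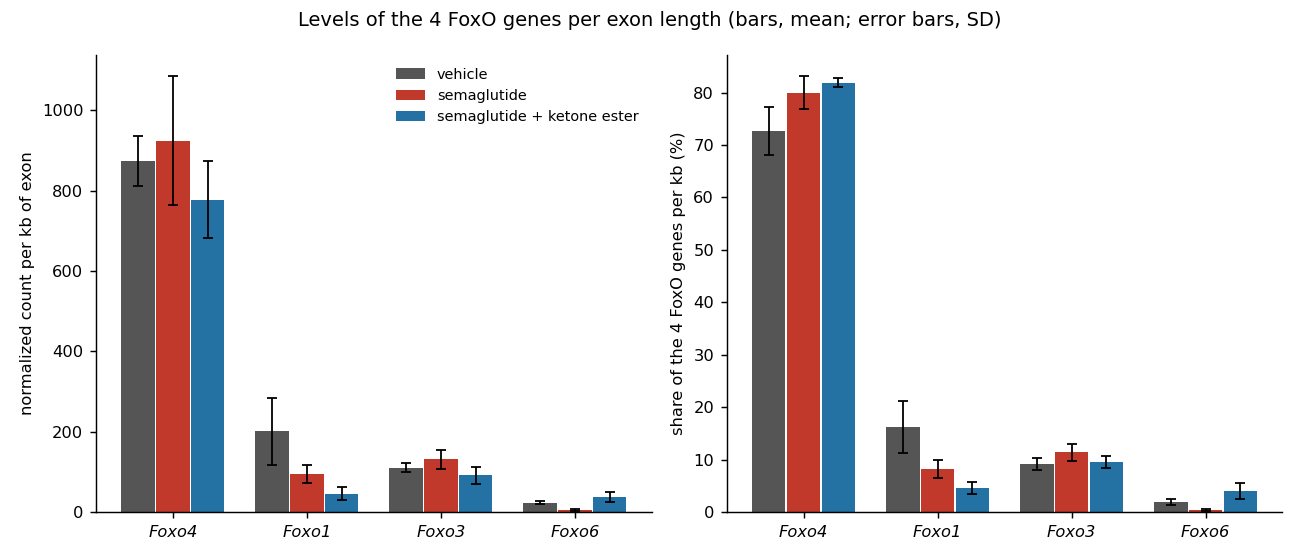
Normalized counts per kb of exon (left) and share of the 4 FoxO genes per kb in percent (right), as group means (bars from 0) with SD (error bars) for 5 vehicle-treated, 5 semaglutide-treated and 3 semaglutide + ketone ester-treated mice. Foxo4 held 72.7% to 81.9% of the FoxO transcript level, and the share of Foxo1 went from 16.2% to 4.65%.

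Depp1 was the member with the widest spread. Depp1, first known as a gene induced by progesterone and by fasting (chr6:116650609-116652794, + strand), had normalized counts of 121, 83.1, 55.7, 75.4 and 92.0 in vehicle mice 1 to 5. Semaglutide mice 13 to 17 had 82.2, 153, 1078.6, 1394.5 and 682. Semaglutide + ketone ester mice 19, 21 and 22 had 57.1, 36.2 and 42.1. Mice 15, 16 and 17 were far above all others, mouse 14 was just above the highest vehicle-treated mouse, and mouse 13 lay inside the vehicle range. The means were 85.5 ± 24.1 (SD, n = 5), 678 ± 571 (SD, n = 5) and 45.1 ± 10.8 (SD, n = 3). Mice 13 and 14 were the lowest of the 5 semaglutide-treated mice and mice 15, 16 and 17 the highest, a split that Foxo1, Foxo3 and 16.3% of all genes tested also had. Among the highest mice the order differed. Mouse 16 was the highest for Depp1, and mouse 17 for Foxo1 and Foxo3.

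The log2 difference of Depp1 was 2.33 (SE 0.62) between semaglutide and vehicle, whose ranges overlapped through mouse 13. It was -3.21 (SE 0.72) between semaglutide + ketone ester and semaglutide, where all mice were lower, and -0.89 (SE 0.72) between semaglutide + ketone ester and vehicle, where mouse 19 at 57.1 lay above vehicle mouse 3 at 55.7. Without mouse 13 the first difference was 2.91 and the second -3.80. Per kb of exon, Depp1 was at 62.9 ± 17.7 under vehicle, 499 ± 420 under semaglutide and 33.2 ± 7.92 under semaglutide + ketone ester (SD; n = 5, 5 and 3). The 2186 bases of Depp1 lie on the opposite strand within the span of Rassf4 (chr6:116633008-116673952, - strand), and the exons of both genes share 0 bases in the GENCODE annotation. The libraries were stranded, but the strand setting of the counting is not given in the sources used here.

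The genes whose levels over the 13 mice were most like those of Depp1, by Pearson's r of log2(normalized count + 1), were Rassf4 (r = 0.98), Cebpd (0.97), Ptp4a1 (0.966), Bclaf1 (0.96) and Sesn1 (0.96). With group means subtracted the r were 0.946, 0.934, 0.979, 0.903 and 0.95, over the same 13 libraries, whose groups and depth the genes share. Cebpd encodes a C/EBP transcription factor, Ptp4a1 a protein phosphatase and Sesn1 a sestrin, an inhibitor of mTOR complex 1 that is itself a known FoxO target. For Rassf4, the gene around Depp1, normalized counts were 55.7 to 96.6 under vehicle, 63.8, 101, 243, 294 and 254 in semaglutide mice 13 to 17 and 47.4 to 49.5 under semaglutide + ketone ester. The log2 differences of Rassf4 were 1.23 (SE 0.35) between semaglutide and vehicle and -1.74 (SE 0.40) between semaglutide + ketone ester and semaglutide, given with no test because the gene was picked for its likeness to Depp1.

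**Figure D3:**
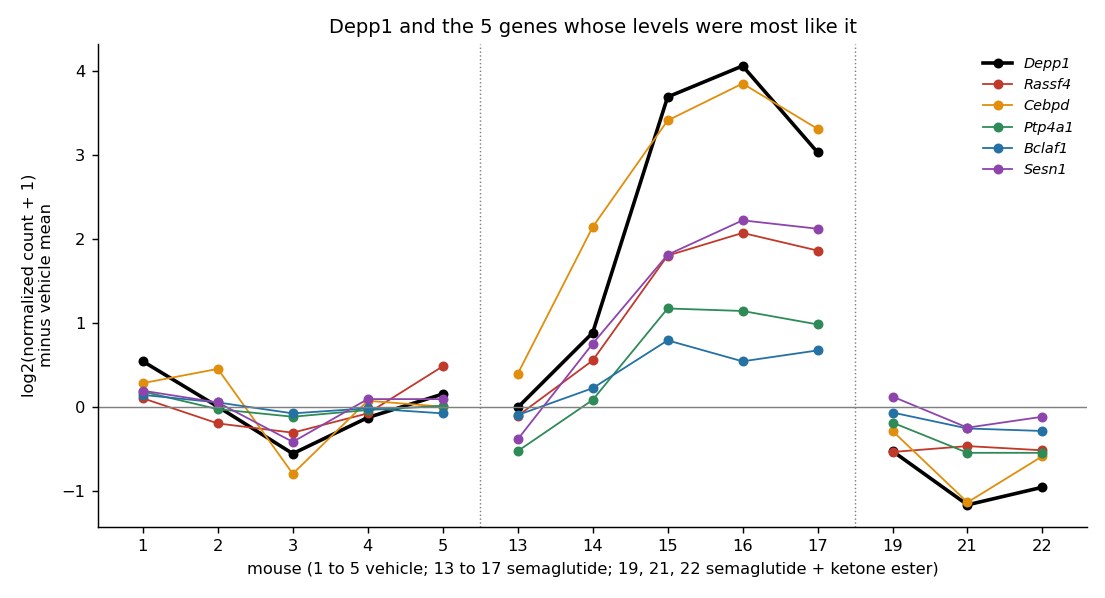
Log2(normalized count + 1) minus the vehicle mean, in each mouse (x axis, by number), for Depp1 and the 5 genes with the highest Pearson r to it over the 13 mice. All 6 genes peaked in semaglutide mice 15, 16 and 17, and mouse 13 was the lowest of the 5 semaglutide-treated mice in each.

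The same measure was taken for each FoxO factor. For Foxo1 they were Cnksr3 (r = 0.935, within groups 0.64), Trpv4 (0.926, 0.645), Jmy (0.925, 0.675), Hif3a (0.924, 0.802) and Sptan1 (0.923, 0.86). For Foxo3 they were Agpat3 (0.929, 0.86), Dedd2 (0.923, 0.87), Gsk3b (0.918, 0.889), Nifk (0.914, 0.885) and Ubr4 (0.913, 0.88), and for Foxo4 Pink1 (0.952, 0.941), Lamp1 (0.936, 0.918), Cnbp (0.918, 0.909), AC115631.1 (0.903, 0.887) and Pdcl3 (0.885, 0.881). Foxo6 was most like Pmpcb (0.984, 0.835), Pdhx (0.981, 0.907), Crybb1 (0.979, 0.862), Dlat (0.977, 0.844) and Uqcrc1 (0.975, 0.801), of which Pmpcb, Pdhx, Dlat and Uqcrc1 encode mitochondrial proteins. An r over 0.9 was reached by 12 genes for Foxo1, 10 for Foxo3, 4 for Foxo4, 142 for Depp1 and 303 for Foxo6. The r of Depp1 itself was 0.21 with Foxo1 (within groups 0.47), 0.83 with Foxo3 (0.71), 0.38 with Foxo4 (0.11) and -0.88 with Foxo6 (-0.73).

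The input to the FoxO factors was followed in 27 genes for hormones, receptors, adaptors, PI 3-kinase subunits, kinases and phosphatases, all of them tested. Under semaglutide 9 of them were higher than under vehicle and 0 lower by limma (33.3%, against 12.5% higher and 13.9% lower of all genes tested), with a median log2 difference of 0.17 against about 0 for all genes. One of them was lower at an unadjusted p under 0.05, and edgeR and DESeq2 on the recovered reads called 10 higher and 0 lower each. Under semaglutide + ketone ester 10 were lower than under semaglutide (37% against 10.7% of all genes) and 1, Igf2, was higher, the median being -0.20. Against vehicle, under semaglutide + ketone ester, limma called 0, with 4 higher and 3 lower at an unadjusted p under 0.05, edgeR called 0, and DESeq2 called 2, Igf2 higher and Irs2 lower. Of all genes limma called 45, edgeR 45 and DESeq2 172 there. The counts of input genes moved with single mice. They went to 5 without vehicle mouse 2 or 4 and 4 without vehicle mouse 5 or semaglutide mouse 15 in the first comparison. In the second they went to 6 and 5 without mouse 21 or 22. In the third the count was 1 without vehicle mouse 5 (Irs2) and 2 without mouse 13 (Igf2 and Irs2). Of all genes 3255 were called in the first with all mice, and 2616, 2572, 2710 and 2481 without mice 2, 4, 5 and 15. In the second 2546 of all genes were called with all mice, and 1264 and 1148 without mouse 21 and 22. In the third 58 of all genes were called without mouse 5 and 132 without mouse 13, against 45. Without mouse 13 the first comparison had 13 input genes higher and 0 lower, and the second 3 higher and 11 lower. Of all genes 17.9% were then higher and 19.6% lower in the first, and 16.4% and 17.1% in the second.

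Akt1, the kinase that phosphorylates FoxO factors, had the largest called difference among the input genes. Its normalized counts were 855 to 1026.9 under vehicle, 1751.4 to 3578.2 under semaglutide and 871 to 919 under semaglutide + ketone ester. All semaglutide-treated mice were above all other mice. Akt1 rose by 1.59 under semaglutide (SE 0.15, limma adjusted p = 1.92e-05) and fell by 1.65 between semaglutide and semaglutide + ketone ester (SE 0.17, adjusted p = 0.00022). Pik3r1, the regulatory subunit of PI 3-kinase, went the same way, from 516 to 920 under vehicle to 1030.0 to 2722.7 under semaglutide and 803 to 946 under semaglutide + ketone ester. Its log2 differences were 1.52 (SE 0.22, adjusted p = 0.000296) and -1.16 (SE 0.25, adjusted p = 0.00549). For both genes the calls held without any single mouse.

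Igf1r, the receptor for insulin-like growth factor 1, rose by 0.90 under semaglutide (SE 0.15, limma adjusted p = 0.000688), with 251 to 301 normalized counts under vehicle and 403 to 664 under semaglutide. It was lower under semaglutide + ketone ester than with semaglutide alone (-0.57, SE 0.17, adjusted p = 0.0276), a call lost without any one of mice 15, 16, 17, 21 and 22 (adjusted p up to 0.122). Irs2, an adaptor of the insulin receptor, was 716 to 1021.2 under vehicle, 950 to 1390.7 under semaglutide and 439 to 594 under semaglutide + ketone ester, the lowest of the groups. It rose by 0.40 under semaglutide (SE 0.13, adjusted p = 0.0345; up to 0.0888, and past the threshold no longer, without any one of mice 2, 5, 14, 15 and 16). With the ketone ester added to semaglutide it fell by 1.13 (SE 0.15, adjusted p = 0.000573). Against vehicle the difference was -0.73 (SE 0.15, adjusted p = 0.0574), with no overlap, and it passed the threshold without mouse 5 or mouse 13. Irs1, the other main adaptor in muscle, rose by 0.92 under semaglutide (SE 0.31, adjusted p = 0.0414) and Sgk1, a kinase related to Akt, by 0.56 (SE 0.19, adjusted p = 0.0481). Irs1 had 923 to 1812.9 normalized counts under vehicle and 5035.7, 1653.2, 2809.2, 1519.8 and 1720.1 in semaglutide mice 13 to 17. Mice 14, 16 and 17 thus lay within the vehicle range. Without mouse 13 the Irs1 difference was 0.63 (SE 0.24). Under semaglutide + ketone ester Irs1 was 0.78 above vehicle (SE 0.36, adjusted p = 0.464). The Irs1 call was lost without any one of mice 1, 2, 3, 5, 15 and 22 (adjusted p up to 0.0935) and that of Sgk1 without any one of mice 2, 3, 4, 5, 14, 15, 17, 21 and 22 (up to 0.118).

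Of 29 genes for proteins that bind or modify FoxO factors, limma called 4 higher (13.8%) and 3 lower (10.3%) under semaglutide than under vehicle, shares close to the 12.5% and 13.9% of all genes. Between semaglutide + ketone ester and semaglutide 2 were higher (6.9% against 10.0% of all genes) and 5 lower (17.2% against 10.7%). None of the 29 was called between semaglutide + ketone ester and vehicle by limma, edgeR or DESeq2, with 1 higher and 4 lower at an unadjusted p under 0.05. Of all genes limma called 0.0975% higher and 0.268% lower there. The medians of the 29 genes were 0.03, -0.08 and -0.07. With equal totals 10 were higher and 2 lower in the first comparison and 1 higher and 14 lower in the second. Of all 12303 genes tested, 3351 were then higher and 985 lower in the first, and 637 and 3715 in the second. The whole table thus shifted the same way with equal totals. For the 29 genes, with the deposited scaling, the first count was 12 without mouse 13, and the second 12 without mouse 13. The second was 4 without any one of mice 1, 3, 4, 17 and 21, and 2 without mouse 22. Of all genes 2351, 2354, 2287, 1816 and 1264 were called in the second without mice 1, 3, 4, 17 and 21. Without mouse 22 it was 1148 of all genes, against 2546 with all mice. Without mouse 13, 17.9% of all genes were higher and 19.6% lower in the first comparison, and 16.4% and 17.1% in the second.

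Sirt3, a mitochondrial deacetylase, fell by 0.99 under semaglutide (SE 0.17, limma adjusted p = 0.00127), from 208 to 309 normalized counts under vehicle to 100 to 201. It was higher by 0.86 under semaglutide + ketone ester than under semaglutide (SE 0.20, adjusted p = 0.00906, and 0.0551 without mouse 22). Smad3, a nuclear partner of FoxO factors that carries TGF-beta signals, fell by 1.09 under semaglutide (SE 0.27, adjusted p = 0.00955) and was 1305.8 to 1452.6 under semaglutide + ketone ester, a log2 difference of 0.18 (SE 0.31, adjusted p = 0.724) from semaglutide. Semaglutide mouse 13, at 2413.9, lay within the vehicle range of 2019.1 to 2913.4. All mice given semaglutide + ketone ester were below that range, and the Smad3 difference from vehicle was -0.91 (SE 0.31, limma adjusted p = 0.298). Smad4, its common partner, rose by 0.42 under semaglutide (SE 0.09, adjusted p = 0.00365) and fell by 0.55 between semaglutide and semaglutide + ketone ester (SE 0.10, adjusted p = 0.00228). Crebbp, an acetyltransferase, rose by 0.30 (SE 0.08, adjusted p = 0.0118) and fell by 0.58 (SE 0.09, adjusted p = 0.000942) in the same comparisons.

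Foxk1, a forkhead factor that represses autophagy genes, rose by 0.57 under semaglutide (SE 0.17, limma adjusted p = 0.0218) and fell by 0.57 between semaglutide and semaglutide + ketone ester (SE 0.19, adjusted p = 0.0467). The first call was lost without any one of mice 15, 16 and 17 (adjusted p up to 0.0616) and the second in 11 of the 13 omissions of a mouse, all but those of mice 13 and 14 (up to 0.148). Cop1, a ubiquitin ligase that acts on FoxO1, fell by 0.41 under semaglutide (SE 0.11, adjusted p = 0.0155) and was higher by 0.39 under semaglutide + ketone ester (SE 0.13, adjusted p = 0.0454). The second call of Cop1 was lost in 10 of the 13 omissions, all but those of mice 5, 13 and 15 (up to 0.191), and both were lost with equal totals. The other called genes, named after their values were seen because they were few, were the methyltransferase Prmt1 (0.30 under semaglutide, SE 0.08, adjusted p = 0.0142), and, lower under semaglutide + ketone ester than with semaglutide alone, the 14-3-3 gene Ywhag (-0.27, SE 0.09, adjusted p = 0.0371) and the acetyltransferase Kat2b (-0.53, SE 0.13, adjusted p = 0.0126).

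The 49 FoxO target genes were taken as genes known to respond to FoxO factors, mostly in muscle and liver, and 46 were tested. G6pc, Igfbp1 and Fasl had means under 10. Under semaglutide 10 were higher than under vehicle (21.7% against 12.5% of all genes) and 6 lower (13% against 13.9%), the median log2 difference being 0.18. Under semaglutide + ketone ester against semaglutide 3 were higher (6.52% against 10.0%) and 10 lower (21.7% against 10.7%), the median being -0.28. Against vehicle, semaglutide + ketone ester had none called by limma, edgeR or DESeq2, with 1 higher and 4 lower at an unadjusted p under 0.05 and a median of -0.11. Of all genes limma called 0.0975% higher and 0.268% lower there. With only these 2 groups in the fit 268 of all genes were called. Among them were the target genes Fbxo32, Bcl6 and Pdk4, each below every vehicle-treated mouse under semaglutide + ketone ester.

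With equal totals 20 target genes were higher and 5 lower in the first comparison and 2 higher and 19 lower in the second. Of all 12303 genes tested, 3351 were then higher and 985 lower in the first, and 637 and 3715 in the second. Mouse 13 had a large share in the counts of target genes. Without it, 21 target genes were higher and 7 lower under semaglutide (45.7% and 15.2%, against 17.9% and 19.6% of all genes), 6 were higher and 22 lower under semaglutide + ketone ester than with semaglutide alone (13% and 47.8%, against 16.4% and 17.1%), and 1, Bcl6, was below vehicle under semaglutide + ketone ester. The second count, 13 with all mice, was 8 without mouse 15, 7 without mouse 17, 8 without mouse 19, 5 without mouse 21 and 7 without mouse 22. Of all genes 2546 were called in that comparison with all mice, and 1961, 1816, 2025, 1264 and 1148 without mice 15, 17, 19, 21 and 22. Mouse 13 was the lowest of the 5 semaglutide-treated mice in 29 of the 46 target genes, 63%, and in 27.4% of all genes tested. Mice 15, 16 and 17 were all above mice 13 and 14 in 27 of the 46, 58.7%, and in 16.3% of all genes, a split that Depp1, Foxo1 and Foxo3 also had.

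**Figure D4:**
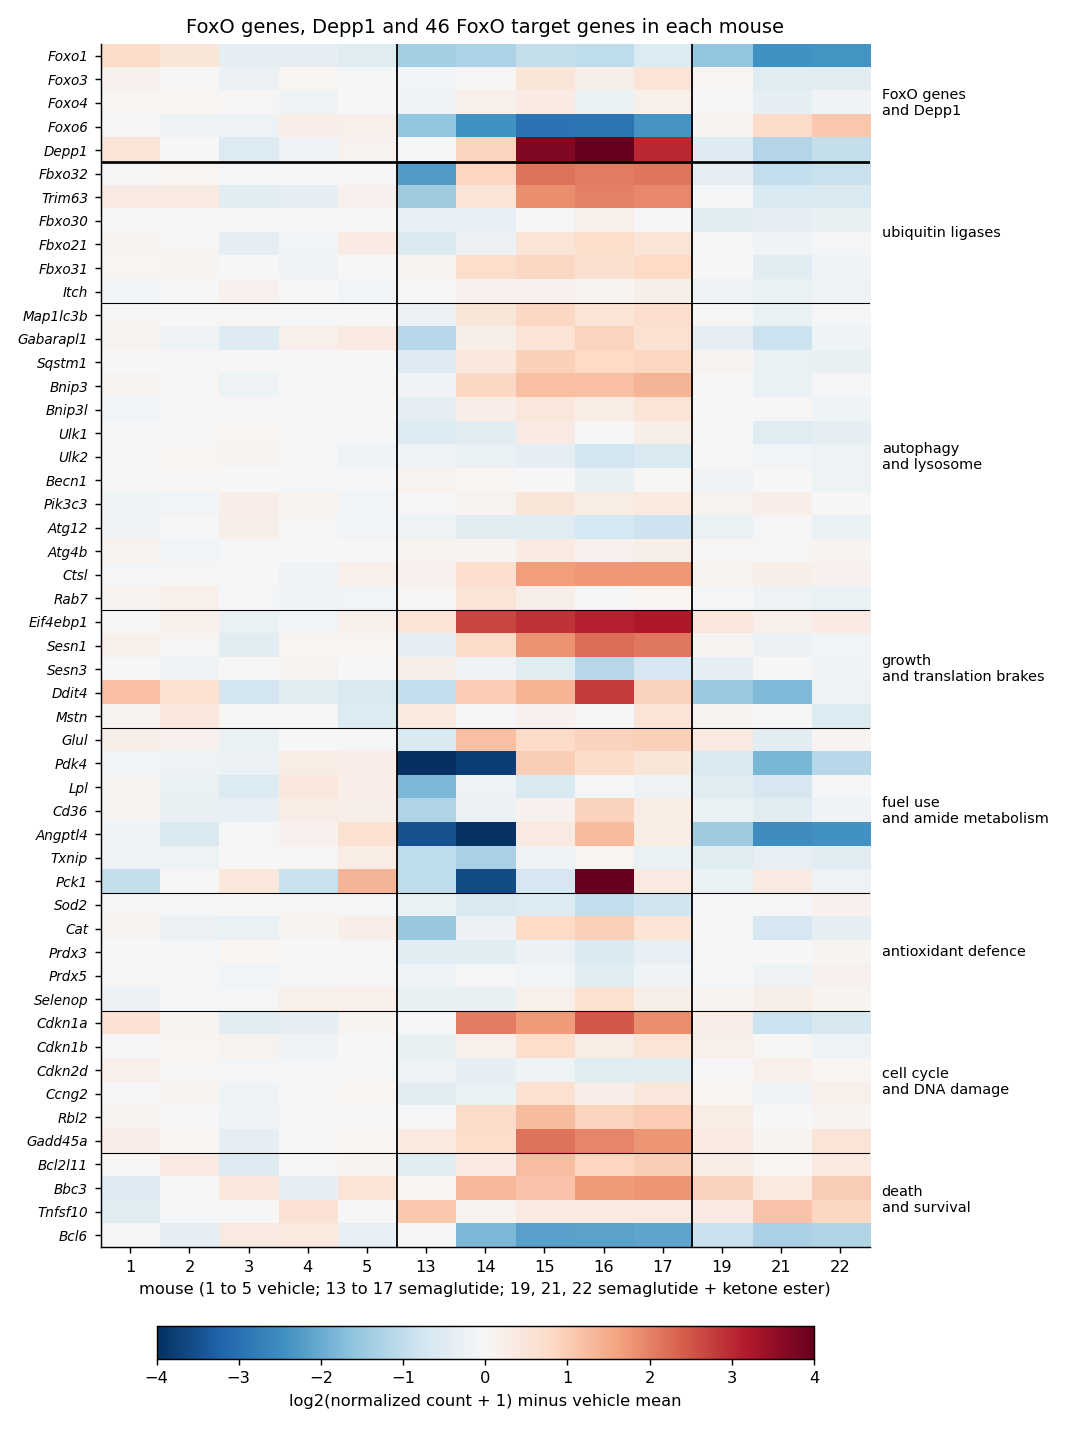
Log2(normalized count + 1) minus the vehicle mean (color, -4 to 4, with values beyond shown at the end of the scale) of the 4 FoxO genes, Depp1 and the 46 FoxO target genes tested (rows, by role) in each mouse (columns, by number). Semaglutide mice 15, 16 and 17 were high in Depp1, Fbxo32, Trim63 and Eif4ebp1, and mouse 13 was below vehicle in Fbxo32 and Trim63.

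Fbxo32 and Trim63, the muscle ubiquitin ligases for which FoxO factors are best known, showed this split. Fbxo32 (chr15:58175879-58214932, - strand) had normalized counts of 6729.6 to 7443.6 in vehicle-treated mice. Semaglutide mice 13 to 17 had 1460.3, 12698.6, 31651.5, 29676.5 and 30758.0, and semaglutide + ketone ester mice 19, 21 and 22 had 5372.0, 3567.0 and 3808.3. Mouse 13 was below every other mouse and the other four semaglutide-treated mice above every other mouse. The log2 differences of 1.00 (SE 0.64, limma adjusted p = 0.273) against vehicle and of -1.74 (SE 0.74, adjusted p = 0.11) for semaglutide + ketone ester against semaglutide did not pass the threshold with all mice, and without mouse 13 they were 1.81 (adjusted p = 2.75e-05) and -2.56 (adjusted p = 7.65e-06). No other omission of 1 mouse gave a call in either comparison (limma adjusted p up to 0.494 and 0.251).

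Trim63 had 2432.7 to 4066.7 normalized counts in vehicle-treated mice. Semaglutide mice 13 to 17 had 1206.0, 4600.2, 11734.6, 13333.1 and 12256.2, and semaglutide + ketone ester mice 19, 21 and 22 had 3121.4, 2145.3 and 2151.1. The pattern was that of Fbxo32, with mouse 13 lowest of all. The log2 differences were 0.97 (SE 0.52, limma adjusted p = 0.183) and -1.39 (SE 0.60, adjusted p = 0.113), and without mouse 13 they were 1.57 (adjusted p = 0.000481) and -1.99 (adjusted p = 0.000263). No other omission of 1 mouse gave a call in either comparison (limma adjusted p up to 0.363 and 0.258). For both ligases edgeR and DESeq2 on the recovered reads called both comparisons with all mice. Of the other 4 ubiquitin ligases, Fbxo31 rose under semaglutide (0.61, SE 0.13, adjusted p = 0.00388), and Fbxo31 and Itch were lower under semaglutide + ketone ester than with semaglutide alone, in a group of 6 with medians of 0.40 and -0.59. Without mouse 13, 3 of the 6 were called higher in the first comparison and 5 lower in the second, against 17.9% and 17.1% of all genes.

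The 5 brakes on growth and translation had medians of 1.03 and -1.38, with 2 called higher under semaglutide than vehicle (against 12.5% of all genes) and 3 lower under semaglutide + ketone ester than semaglutide (against 10.7%). Without mouse 13 the first was 3 higher and 1 lower, against 17.9% and 19.6% of all genes. Eif4ebp1, the translation repressor 4E-BP1, had 448 to 621 normalized counts under vehicle, 772, 3466.5, 4046.7, 4712.7 and 5032.7 in semaglutide mice 13 to 17, and 627 to 737 under semaglutide + ketone ester. All semaglutide-treated mice were above all others, mouse 13 only just. Eif4ebp1 rose by 2.48 under semaglutide (SE 0.39, limma adjusted p = 0.000577) and fell by 2.15 between semaglutide and semaglutide + ketone ester (SE 0.45, adjusted p = 0.00468), calls that held without any single mouse. Sesn1 rose by 1.30 (SE 0.39, adjusted p = 0.0237) and fell by 1.38 (SE 0.45, adjusted p = 0.0409) in the same comparisons, with mouse 13 at 277 against 271 to 415 under vehicle. The first Sesn1 call was lost without any one of mice 3, 15, 16 and 17 (adjusted p up to 0.0668) and the second in 10 of the 13 omissions, all but those of mice 3, 13 and 14 (up to 0.131). Ddit4, an inhibitor of mTOR complex 1 also known as REDD1, fell by 2.18 between semaglutide and semaglutide + ketone ester (SE 0.66, adjusted p = 0.032), a call lost without any one of mice 14, 15, 16, 17, 19 and 21 (up to 0.134), and its difference between semaglutide and vehicle was 1.03 (SE 0.57, adjusted p = 0.204) with all mice and 1.53 (adjusted p = 0.0178) without mouse 13. The Ddit4 difference between semaglutide and vehicle was called in no other omission of 1 mouse (limma adjusted p up to 0.44).

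In the cell cycle and DNA damage group 3 of 6 genes rose under semaglutide, Cdkn1a, Gadd45a and Rbl2, and Cdkn2d fell, against 12.5% higher and 13.9% lower of all genes. Under semaglutide + ketone ester 2 were lower than under semaglutide (against 10.7% of all genes), and 4 without mouse 13 (against 17.1%). Cdkn1a, the cell cycle inhibitor p21, rose by 1.60 (SE 0.39, limma adjusted p = 0.00811) and fell by 2.02 between semaglutide and semaglutide + ketone ester (SE 0.45, adjusted p = 0.00674), with 172 to 347, 221 to 1299.3 and 126 to 274 normalized counts in the 3 groups. Gadd45a, a stress sensor induced in wasting muscle, rose by 1.4 (SE 0.29, adjusted p = 0.00322) and fell by 1.07 (SE 0.33, adjusted p = 0.0338), the second call being lost without any one of mice 15, 16, 17, 19, 21 and 22 (adjusted p up to 0.125). In the death and survival group 1 gene rose and 1 fell under semaglutide. Bbc3, a gene of the BCL2 family that promotes cell death and was named after its values were seen, rose by 1.20 (SE 0.33, adjusted p = 0.0159). Bcl6, a transcriptional repressor, fell by 1.65 under semaglutide (SE 0.34, adjusted p = 0.00328) although mouse 13, at 2194.4, lay in the vehicle range of 1710.7 to 2950.5. Bcl6 stayed low under semaglutide + ketone ester, at 918 to 1215.8, below every vehicle-treated mouse, with a log2 difference from vehicle of -1.13 (SE 0.39, adjusted p = 0.302), and from semaglutide of 0.52 (SE 0.39, adjusted p = 0.369). Both of these passed the threshold without mouse 13, and in no other omission of 1 mouse.

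Of 13 autophagy and lysosome genes, 3 rose under semaglutide (Map1lc3b, Bnip3 and the lysosomal protease gene Ctsl) and 2 fell (Ulk2 and Atg12), and the same 3 that rose were lower under semaglutide + ketone ester than with semaglutide alone. Of all genes 12.5% were higher and 13.9% lower in the first comparison and 10.7% lower in the second. Without mouse 13 the group had 8 higher and 2 lower in the first comparison and 2 higher and 7 lower in the second. Of all genes 17.9% were then higher and 19.6% lower in the first, and 16.4% and 17.1% in the second. Sqstm1, the autophagy receptor p62 and the highest of the group, was 10445.9 to 11298.4 under vehicle and 7625.6 to 21249.9 under semaglutide, with mouse 13 lowest, a log2 difference of 0.50 (SE 0.22, limma adjusted p = 0.106). Without mouse 13 it was 0.76 (adjusted p = 0.000152). Between semaglutide + ketone ester and semaglutide it was -0.65 with all mice (SE 0.26, adjusted p = 0.0856) and -0.91 without mouse 13 (adjusted p = 0.000142). No other omission of 1 mouse gave a call in either comparison (limma adjusted p up to 0.239 and 0.245).

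Of 5 antioxidant genes, 2 fell under semaglutide (against 13.9% of all genes) and the same 2 were higher under semaglutide + ketone ester than under semaglutide (against 10.0%), while Cat, Selenop and Prdx5 were not called in either comparison. Sod2, the mitochondrial superoxide dismutase, fell by 0.64 under semaglutide (SE 0.11, limma adjusted p = 0.00107), from 5694.3 to 6126.6 normalized counts under vehicle to 2988.0 to 4849.1, and was higher by 0.67 under semaglutide + ketone ester than under semaglutide (SE 0.13, adjusted p = 0.00298). Prdx3, a mitochondrial peroxiredoxin, fell by 0.40 (SE 0.07, adjusted p = 0.0016) and was higher by 0.45 (SE 0.08, adjusted p = 0.00256). Sod2, Prdx3 and Cdkn2d were the 3 target genes that were higher under semaglutide + ketone ester than under semaglutide.

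Of the 7 tested genes of fuel use and amide metabolism limma called 0 in each comparison, with 1 higher (Glul) and 1 lower (Txnip) at an unadjusted p under 0.05 between semaglutide and vehicle and 1 lower (Angptl4) between semaglutide + ketone ester and vehicle, and their medians were -0.53, -0.04 and -0.41. Without mouse 13 limma called 1 higher in the first comparison and 1 lower in the second, against 17.9% and 17.1% of all genes. Glul, the glutamine synthetase gene, was called higher under semaglutide than vehicle by edgeR and by DESeq2. Pdk4, the kinase that shuts off pyruvate dehydrogenase and the highest of the group, had 14646.7 to 21344.3 normalized counts under vehicle and 4938.0 to 11475.1 under semaglutide + ketone ester. Semaglutide mice 13 to 17 had 978, 1273.5, 34233.0, 28847.2 and 24557.2. Mice 13 and 14 were thus far below all other mice and mice 15, 16 and 17 above all others, with a log2 difference from vehicle of -1.15 (SE 0.88, limma adjusted p = 0.361), and of -0.40 (adjusted p = 0.699) without mouse 13. Angptl4, an inhibitor of lipoprotein lipase that was named after its values were seen, had the same split, at -3.47 and -3.94 from the vehicle mean on the log2 scale in mice 13 and 14 and 0.29 to 1.28 in mice 15, 16 and 17.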

How the data were processed

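RNA-seq of gastrocnemius was available from 13 mice, and no column was left unmapped (0). Per the study's methods the authors prepared stranded mRNA libraries and aligned paired-end reads to mm10 with DRAGEN, and the submitters' processing notes also name DESeq2. The deposited unit is the normalized count per gene, a signal divided by a size factor per mouse. The counting program, annotation and strand setting are not given in the sources used here. Every value was a whole multiple of 1 step per mouse, so that whole reads were recovered for 100% of values (tolerance 0.01), and the steps lay within 1.29% of median-of-ratios size factors.

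Log2(normalized count + 1) of the 12303 genes with a mean of at least 10 was fitted in limma 3.58.1 (R 4.3.3) with all 3 groups and a mean-variance trend, with Benjamini-Hochberg adjustment over all genes and a threshold of 0.05. The scale understates differences of low genes. The trend was chosen after the number of calls with and without it had been seen. edgeR 4.0.16 (quasi-likelihood test, TMM) and DESeq2 1.42.0 were run on recovered reads. All 3 were run on simulated counts with the same spread setting for all genes and groups and no mouse set apart. Such counts cannot show how the tools do with a mouse like mouse 13. The members and gene lists were chosen with earlier results of these data known. Named list genes were Fbxo32 and Trim63, up to 5 and 3 called genes with the largest difference per list in the comparisons of semaglutide with vehicle and of semaglutide + ketone ester with semaglutide, and the highest gene of each remaining role. The 5 genes most like each member were taken by Pearson's r. Exon lengths came from GENCODE M21 and promoter sequences from RefSeq, for 40 of the 49 target genes. Each library has a number of its own, taken here as a mouse, but the labels do not state that these are separate animals, and p-values measure only the spread between them.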

Additional observations from a re-analysis of the deposited data

Results flagged for a closer look

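Among 56 groups of 5 mice examined over the members and named genes, 2 held a mouse far from the other four, by Dixon's test at the 95% level, which marks about 1 group in 20 by chance. In Bcl6, semaglutide mouse 13 was highest at a normalized count of 2194.4, with a gap of 0.913 of the group's range to the next mouse. In Sesn1, vehicle mouse 3 was lowest at 271, with a gap of 0.733 of the range.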

How the results depend on the processing

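The direction of each member's difference held in all alternatives, with Foxo1 between -1.16 and -0.85 (semaglutide minus vehicle), -1.37 and -0.94 (semaglutide + ketone ester minus semaglutide) and -2.41 and -1.94 (semaglutide + ketone ester minus vehicle) over omissions of 1 mouse, except for Foxo4 between semaglutide and vehicle, which was -0.00 without semaglutide mouse 15. With equal totals, the Foxo4 difference between semaglutide + ketone ester and semaglutide was -0.47. The cause of these and the following changes was not tested.

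Counts of called genes are given for FoxO input, FoxO-binding and FoxO-modifying, and FoxO target genes, in that order. With all mice they were 9, 7 and 16 between semaglutide and vehicle, 11, 7 and 13 between semaglutide + ketone ester and semaglutide, and 0 each between semaglutide + ketone ester and vehicle. With mouse weights they were 16, 11 and 26, then 15, 12 and 29, then 2, 3 and 3. Of all genes 4986, 4436 and 318 were called with mouse weights. With equal totals the binding and target counts were 12 and 25, then 15 and 21, and the input count against vehicle was 1 under semaglutide + ketone ester. Of all genes 4336, 4352 and 62 were called with equal totals. With only 2 groups in the fit the list counts were 5, 3 and 6 in the second comparison and 2, 2 and 5 in the third, with 1208 and 268 of all genes called. Without the variance trend, an alternative added after seeing the data, the input count was 5 in the first comparison, with 3084 of all genes called. DESeq2 called 2 input genes in the third. Omitting 1 mouse gave 4 to 13, 6 to 12 and 13 to 28 in the first comparison, 5 to 14, 2 to 12 and 5 to 28 in the second, and 0 to 2, 0 to 0 and 0 to 1 in the third. Of all genes 2376 to 4611, 1148 to 4119 and 4 to 132 were then called, against 3255, 2546 and 45 with all mice. By one-way analysis of variance, unadjusted with a fold of at least 1.5, 5 input and 4 binding genes were altered, against 14 and 9 called by limma in any pair of groups. Of the values of named genes under alternatives, 101 lost and 42 gained a call, 1582 kept theirs, and none reversed. At these depths Foxo6 rests on 6 to 20 reads in semaglutide-treated mice. No paired analysis was possible because mouse numbers are not shared between groups.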
